A study of Mus musculus with 12 samples.

Results

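Small leucine-rich proteoglycans are secreted proteins with a short core built of leucine-rich repeats, most of them with 1 or more sugar chains attached. They were followed here along the mouse cochlea through 10 genes, Dcn, Bgn, Aspn, Lum, Kera, Fmod, Prelp, Omd, Epyc and Ogn. The members were chosen by gene name, as all non-control probes that the files list under these names, which gave 10 of 19505 genes and 43 of 165984 probes. Kera was picked because its level differs between apex and middle, so that its values are given as a description with no test, and the counts below run over the 9 other members.

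The cores of these proteins bind collagen fibrils, and the family is known for setting the diameter and spacing of fibrils in cornea, tendon, cartilage and bone. Dcn, Bgn and Aspn form one class, with chondroitin or dermatan sulfate chains on Dcn and Bgn. Lum, Kera, Fmod, Prelp and Omd form a class of which most members carry keratan sulfate, and Epyc and Ogn belong to a further class. In the cochlea, fibrillar matrix is found in the spiral ligament, the spiral limbus and the basilar membrane.

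RNA of the apical, middle and basal turns of male C57BL/6 mice aged 6 weeks was measured on 12 one-colour exon arrays, 4 for each turn, from 25 ng of total RNA each. The 3 groups are labelled by turn and share strain, sex and age, with no treatment or engineered allele. The methods name 4 mice for the 12 arrays, and the study calls the 4 arrays of a turn independent mouse samples, so that the turns share animals. No label says which arrays come from one animal, and the tests below treat the arrays as independent. The otic capsule had been taken off, and each piece held the lateral wall with stria vascularis and spiral ligament, the spiral ganglion and the organ of Corti. The study asked which genes change along the cochlea, where low tones are sensed at the apex and high tones at the base, with an eye to the differing audiograms of inherited deafness.

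Brightness before scaling was alike across the arrays, with a 75th percentile of 534 to 721.6 and 77.37% to 81.39% of spots well above background. The 4 arrays of each turn shared a slide and its scan, so that slide and turn cannot be told apart. The labelled tissue was looked at through markers: all 8 hair cell markers, all 6 spiral ganglion neuron markers and all 6 spiral ligament fibrocyte markers were above background. So were all 7 bone, all 7 cartilage and all 4 blood markers. By the same rule 16505 genes were above background, beside 19505 genes tested, so that this does not tell tissues apart. Markers of hair cells and neurons were higher at the apex and those of fibrocytes were higher at the base. For hair cells, all but Myo7a are genes that the study itself lists as higher at the apex on these arrays. Basal replicate 3 stood apart in neuron markers, with a summed signal of 19700 against 5496, 7527 and 9818 on the other basal arrays. Apical replicate 4 stood apart in bone markers, with a summed signal of 4874 against 1329 to 1804 on the other apical arrays. Because each piece is a mixture, fewer cells of a type and less RNA per cell cannot be told apart.

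Each probe is a stretch of 60 bases from an exon, placed by the files on the mouse build mm9. The probes shown next, 1 for each of 7 members, read, in a frame without a stop codon, through the core of a leucine-rich repeat. A probe of Aspn and further probes of Epyc and Bgn held such a core too and are not shown. Capitals mark 3 codons of that core: a leucine or similar residue (isoleucine, valine or phenylalanine), then after a gap of 2 residues an asparagine, then after a gap of 1 residue another leucine or similar residue. Kera is shown because its level chose it, Epyc, Dcn, Lum, Fmod and Prelp for their differences between turns, and Bgn as a member for which no difference passed.
Kera, chr10:97072192-97072251, plus strand: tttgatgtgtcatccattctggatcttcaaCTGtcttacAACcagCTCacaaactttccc
Epyc, chr10:97139646-97139705, plus strand: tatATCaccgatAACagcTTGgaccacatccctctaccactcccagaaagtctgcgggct
Dcn, chr10:96976312-96976371, plus strand: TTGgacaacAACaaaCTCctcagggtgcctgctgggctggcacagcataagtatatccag
Lum, chr10:97031646-97031705, plus strand: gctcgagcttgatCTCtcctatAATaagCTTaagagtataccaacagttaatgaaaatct
Fmod, chr1:135937698-135937757, plus strand: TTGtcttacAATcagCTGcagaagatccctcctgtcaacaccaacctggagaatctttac
Prelp, chr1:135811616-135811675, minus strand: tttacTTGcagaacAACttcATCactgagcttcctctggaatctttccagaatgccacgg
Bgn, chrX:70736692-70736751, plus strand: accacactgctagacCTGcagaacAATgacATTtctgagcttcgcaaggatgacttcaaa

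Such a core was found in 11 of the 43 family probes (25.6%) and in 4.97% of all 165984 probes, on the probe's own strand. The search is a description of the printed letters. Of the family probes, 42 of 43 were well above background on all 12 arrays, and the exception was the Kera probe printed above, which fell short on apical replicate 2.

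Across the family, 4 members were higher at the apex than at the base (Epyc, Fmod, Prelp and Lum), 2 were higher at the base (Dcn and Omd), and Bgn, Aspn and Ogn did not pass the test. These 6 of 9 members passed limma's moderated contrast between apex and base at an adjusted p under 0.05, beside 39.2% of all genes, 17.6% higher at the apex and 21.6% higher at the base. Of the genes called, 44.9% were thus higher at the apex, and with arrays scaled to their median the share was 26.5%. When a moderated F test in limma (all 3 turns, adjusted p under 0.05) and a 2-fold difference were required together, 5 of the 9 passed, beside 4.39% of all genes. The arrays of the 2 turns did not overlap for 6 of the 9, beside 38.3% of all genes. The median size of the difference was 1.28 log2 units over the 9 members and 0.19 over all genes. Fold values below are ratios of geometric means on the scaled signal, and signal is not compared between genes, since probes differ in how they bind.

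**Figure D1:**
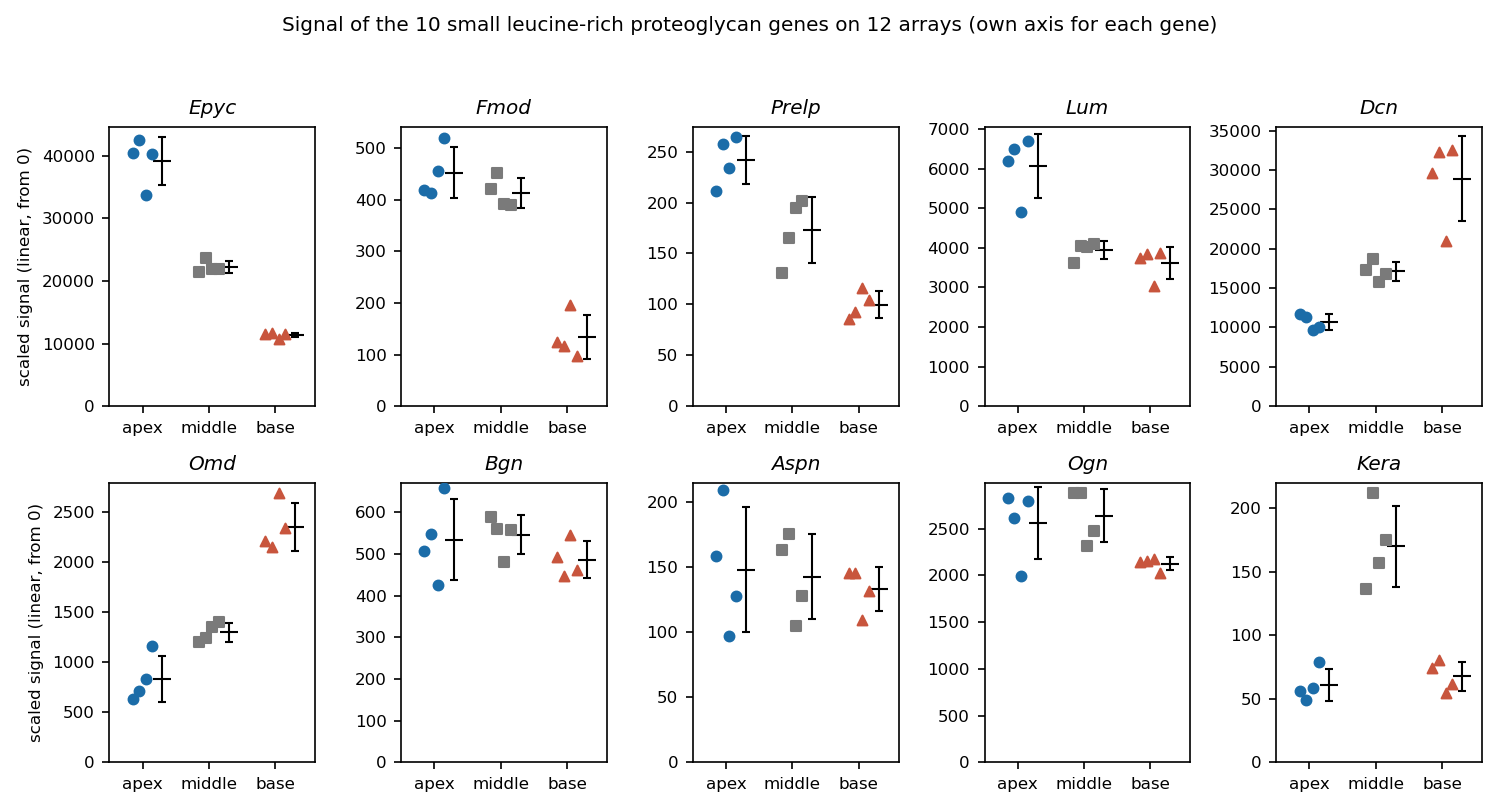
Scaled signal (linear axis from 0, a scale of its own for each gene) of the 10 genes on the 4 apical (circles), 4 middle (squares) and 4 basal (triangles) arrays, with the mean and SD of each turn in black. Epyc falls from 39200 to 11370 from apex to base and Dcn climbs from 10690 to 28890, while the 4 middle arrays of Kera, between 136.2 and 212, lie above all 8 others.

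Epyc, which encodes epiphycan, a proteoglycan first known from growth plate cartilage, had apical signals of 40399, 42524, 33665 and 40204. The middle arrays read 21455, 23730, 21834 and 21902, and the basal arrays read 11558, 11646, 10786 and 11473. The 3 turns did not overlap in any pair. Epyc was 3.437-fold higher at the apex than at the base (95% interval 3.083 to 3.832, limma adjusted p = 6.9e-08), 1.758-fold higher at the apex than in the middle (adjusted p = 0.00017) and 1.955-fold higher in the middle than at the base (adjusted p = 1.7e-05). On the log2 scale the upper step, apex to middle, was 0.81 and the lower step, middle to base, was 0.97.

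Fmod, which encodes fibromodulin, a collagen-binding protein that carries keratan sulfate, followed another course. Its apical signals were 418.94, 413.67, 455.57 and 520, its middle signals 419.95, 451.82, 391.94 and 389.4, and its basal signals 123.87, 117.18, 196.03 and 97.895. Apical and middle arrays overlapped, and all 8 lay above the basal arrays. Fmod was 3.484-fold higher at the apex than at the base (95% interval 2.671 to 4.545, limma adjusted p = 2.3e-05) and 3.193-fold higher in the middle than at the base (adjusted p = 0.00013), and the step from apex to middle was 1.091-fold (interval 0.8365 to 1.423, adjusted p = 0.66). The highest basal value belonged to basal replicate 3, the array with the high neuron markers, and without it the difference between apex and base was 4.003-fold (adjusted p = 1.1e-06).

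Prelp encodes a protein with a basic, arginine- and proline-rich end that anchors basement membranes to the matrix beneath. Its apical signals were 211.66, 257.49, 234.25 and 264.19, its middle signals 130.45, 165.57, 194.25 and 201.2, and its basal signals 86.118, 92.542, 115.73 and 104.24. The 3 turns were ordered without overlap. Prelp was 2.434-fold higher at the apex than at the base (95% interval 1.963 to 3.018, limma adjusted p = 5.5e-05) and 1.721-fold higher in the middle than at the base (adjusted p = 0.0039). The step from apex to middle was 1.414-fold with an adjusted p of 0.043, and it missed the threshold when any 1 of 8 arrays was left out (apical replicate 1, 2, 3 or 4, middle replicate 1 or 2, basal replicate 2 or 4), with a p of up to 0.11.

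Lum, which encodes lumican, a keratan sulfate proteoglycan of the cornea, had apical signals of 6196.1, 6488.5, 4896.3 and 6690.2. The middle arrays read 3613.5, 4037.3, 4018.1 and 4106.7, and the basal arrays 3749.9, 3847.7, 3026.2 and 3867.8. All apical arrays lay above the rest, while middle and basal arrays overlapped. Lum was 1.671-fold higher at the apex than at the base (95% interval 1.417 to 1.971, limma adjusted p = 0.00033) and 1.529-fold higher at the apex than in the middle (adjusted p = 0.0067), and middle and base differed by 1.093-fold (interval 0.9263 to 1.289, adjusted p = 0.42). When arrays were scaled to the spike-in probes, the difference between apex and base was 0.15 log2 units with a limma adjusted p of 0.34. That scaling moved the median of all genes to -0.62, and relative to that median Lum was at 0.78.

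Dcn ran the other way. It encodes decorin, which binds collagen and holds TGF-beta in the matrix. Its apical signals were 11715, 11296, 9624.2 and 10117, its middle signals 17269, 18704, 15771 and 16836, and its basal signals 29607, 32344, 21026 and 32592. No turn overlapped with another, and the lowest basal value was that of basal replicate 3. Dcn was 2.671-fold higher at the base than at the apex (95% interval 2.189 to 3.26, limma adjusted p = 1.6e-05), 1.606-fold higher in the middle than at the apex (adjusted p = 0.0097) and 1.663-fold higher at the base than in the middle (adjusted p = 0.0037). Without basal replicate 3 the difference between base and apex was 2.955-fold (adjusted p = 1.3e-06).

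Omd, which encodes osteomodulin, a keratan sulfate proteoglycan of bone matrix, also climbed toward the base. The apical signals were 631.46, 711.55, 834.62 and 1158.1, the middle signals 1201.7, 1235.9, 1354.6 and 1403.1, and the basal signals 2210.3, 2143.2, 2683.7 and 2337.8. The turns were ordered without overlap, and apical replicate 4, the array with high bone markers, came close to the middle arrays. Omd was 2.876-fold higher at the base than at the apex (95% interval 2.259 to 3.661, limma adjusted p = 3.7e-05), and without apical replicate 4 the log2 difference, apex minus base, was -1.69. Base and middle differed by 1.801-fold (adjusted p = 0.0047). The 1.597-fold step from apex to middle had an adjusted p of 0.022 and missed the threshold without apical replicate 1, apical replicate 2 or middle replicate 4 (p of up to 0.07).

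For 3 members no comparison between turns passed. Bgn, the close relative of Dcn, had mean signals of 534.7 ± 97.2, 546.7 ± 46.4 and 486.2 ± 43.9 at apex, middle and base (SD, n = 4 each), with a log2 difference between apex and base of 0.12 (95% interval -0.14 to 0.39, limma adjusted p = 0.49). Aspn, which encodes asporin, a family member with a run of aspartates, had means of 147.9 ± 47.9, 142.8 ± 32.5 and 133.2 ± 17.1, and its interval between apex and base ran from -0.40 to 0.61 (adjusted p = 0.77). Ogn, which encodes osteoglycin, also called mimecan, had means of 2557 ± 386, 2637 ± 286 and 2124 ± 69.7. Its interval between apex and base ran from 0.01 to 0.50 log2 units (adjusted p = 0.095). A 2-fold difference between apex and base lies outside all 3 intervals.

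With the spike-in scaling, the log2 difference of these 3 genes, apex minus base, turned below 0 and passed, while the median of all genes moved to -0.62. Relative to that median they were at 0.16, 0.14 and 0.29. With quantile normalization Ogn passed in the other direction, at 0.38 between apex and base (limma adjusted p = 0.016) and 0.36 between middle and base (adjusted p = 0.038). One of the 7 Aspn probes had a single bright spot, at 1185 on apical replicate 2 against 48.96 to 129.7 on the 11 other arrays, and it carried no flag. Without that probe, apical replicate 2 read 156.7 for the gene and the difference between apex and base was 0.05 (adjusted p = 0.86).

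Kera encodes keratocan, a keratan sulfate proteoglycan best known from the cornea. Its apical signals were 56.117, 49.33, 58.936 and 79.436, its middle signals 136.19, 212.03, 157.22 and 175.07, and its basal signals 74.239, 80.366, 54.647 and 61.887. All 4 middle arrays lay above the other 8, and the apical and basal arrays overlapped. The middle was 2.798-fold above the apex and 2.505-fold above the base, and apex and base were within 1.117-fold. Both probes had this shape: the probe printed above averaged 32.59, 91.44 and 38.8 at apex, middle and base, and the probe nearer the 3′ end averaged 115.2, 317.4 and 118.6.

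The second Kera probe sits at 10 spots on each array, which gives a measure of technical spread. After 9 flagged spots on 5 arrays were left out, the spots of an array varied with a CV of 4.11% to 12.7%. The lowest spot used on any middle array read 252.7, and the highest used on any apical or basal array read 188.2. This gap holds for the spots kept: a flagged spot on apical replicate 3 read 326.3, and 4 of the 10 spots of middle replicate 1 were left out. As Kera was chosen for its level, the gap is a description. Kera is dim, and its values rest on how background was subtracted: with limma's normexp correction of the unsubtracted signal, the log2 difference, apex minus middle, was -0.91 in place of -1.48, and middle minus base was 0.85 in place of 1.32.

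Between apex and middle, 5 of the 9 tested members passed, beside 12% of all genes. Epyc, Lum and Prelp were higher at the apex, beside 4.42% of all genes, and Dcn and Omd in the middle, beside 7.62%. None of the 9 passed the F test with a 2-fold difference here, beside 0.436% of all genes. Between middle and base, 5 of 9 passed as well, beside 20.9% of all genes, with Fmod, Prelp and Epyc higher in the middle (beside 11.6%) and Dcn and Omd at the base (beside 9.22%). With the F test and a 2-fold difference Fmod was the 1 member that passed, beside 2.66% of all genes. The arrays did not overlap for 5 of 9 members between apex and middle and 6 of 9 between middle and base, beside 20.8% and 24% of all genes. The comparisons share arrays (apex against middle and apex against base share the apical ones), so that they are not independent of each other.

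**Figure D2:**
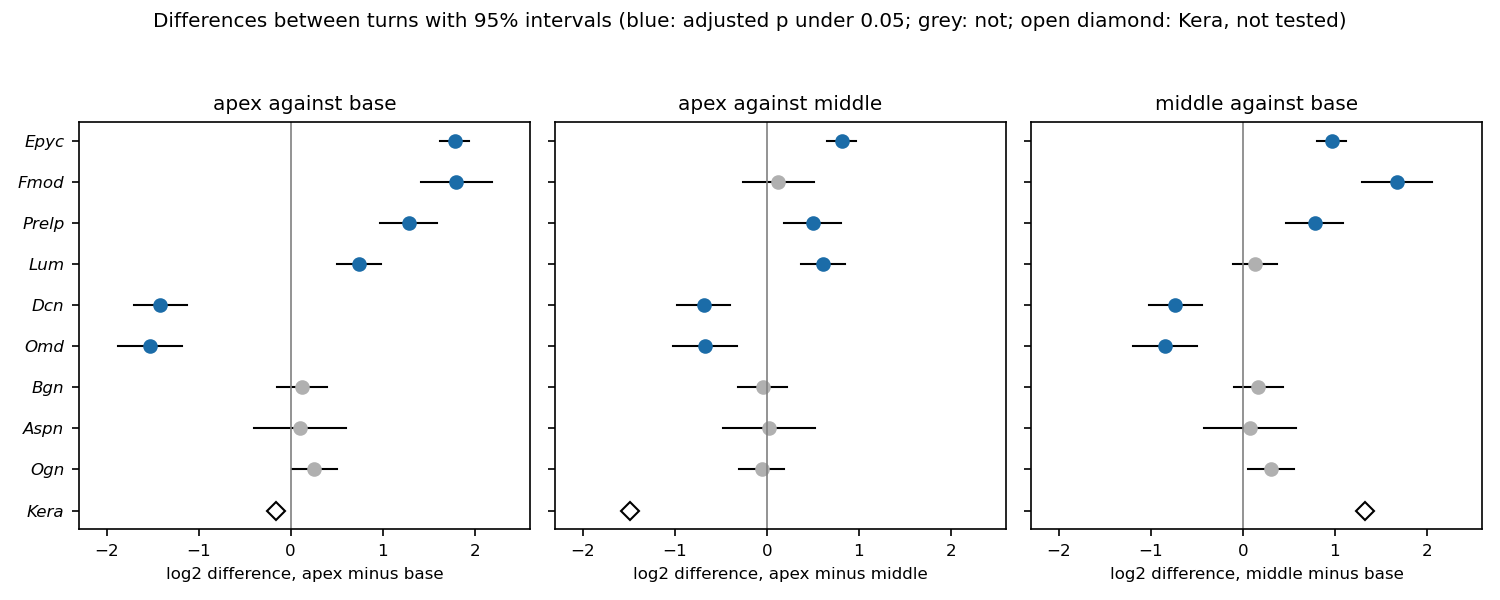
Log2 difference between turns (horizontal axis, first turn named minus the second) for each gene, with 95% intervals from limma over 12 arrays. Points are blue where the adjusted p is under 0.05 and grey where it is not, and the open diamond marks Kera, which has no test. Fmod lies near 0 between apex and middle and at 1.67 between middle and base, and Lum lies at 0.61 and 0.13.

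Where along the cochlea a gene changed was looked at with the bend, defined as 2 times the middle minus apex minus base on the log2 scale. This contrast was chosen after the values had been seen. It passed for 1 of the 9 members, Fmod, at 1.55 (limma adjusted p = 0.028), beside 2.01% of all genes, and its p lay between 0.0021 and 0.089 when single arrays were left out. It missed the threshold without apical replicate 2, middle replicate 1, 2 or 4, or basal replicate 1 or 2, and also under a plain analysis of variance (adjusted p = 0.06) and with the spike-in scaling (adjusted p = 0.066). In the fit of all probes, the bend of the Fmod probe nearer the 3′ end passed, at 1.83 (limma adjusted p = 0.031). That of the other Fmod probe did not, at 1.27 (adjusted p = 0.11). At the middle turn, Fmod had covered 6.99% of its log2 path from apex to base and Lum 82.7%, while Epyc, Dcn, Omd and Prelp had covered 45.7%, 48.2%, 44.3% and 38.9%. For Lum the bend had an adjusted p of 0.18, so that an uneven course was not shown for it.

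The probes of a gene lie at different places along it and give repeated readings of the gene, not replicates of a turn. Not all need read the same transcript: the Prelp probes are assigned to different transcript records, and so is the Dcn probe nearest the 3′ end against the other Dcn probes. All 7 probes of Dcn, all 6 of Epyc and both probes each of Omd, Fmod, Prelp and Lum passed between apex and base in a fit of all probes, beside 34.4% of all probes. No Bgn or Aspn probe passed, and 1 of the 6 Ogn probes did. Between apex and middle all probes of Dcn, Epyc, Omd and Lum passed, beside 5.9% of all probes, and between middle and base all probes of Dcn, Epyc, Omd, Fmod and Prelp, beside 13.8%. Neither Prelp probe passed between apex and middle (limma adjusted p = 0.13 and 0.051), although the gene mean did. The Ogn probe nearest the 5′ end differed by 0.46 log2 units (limma adjusted p = 0.025), and the difference became smaller probe by probe to 0.05 at the 3′ end. Along Epyc the difference went from 1.97 at the 5′ end to 1.67 at the 3′ end, and along Bgn from 0.25 to -0.03. Dcn went from -1.52 to -1.17.

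**Figure D3:**
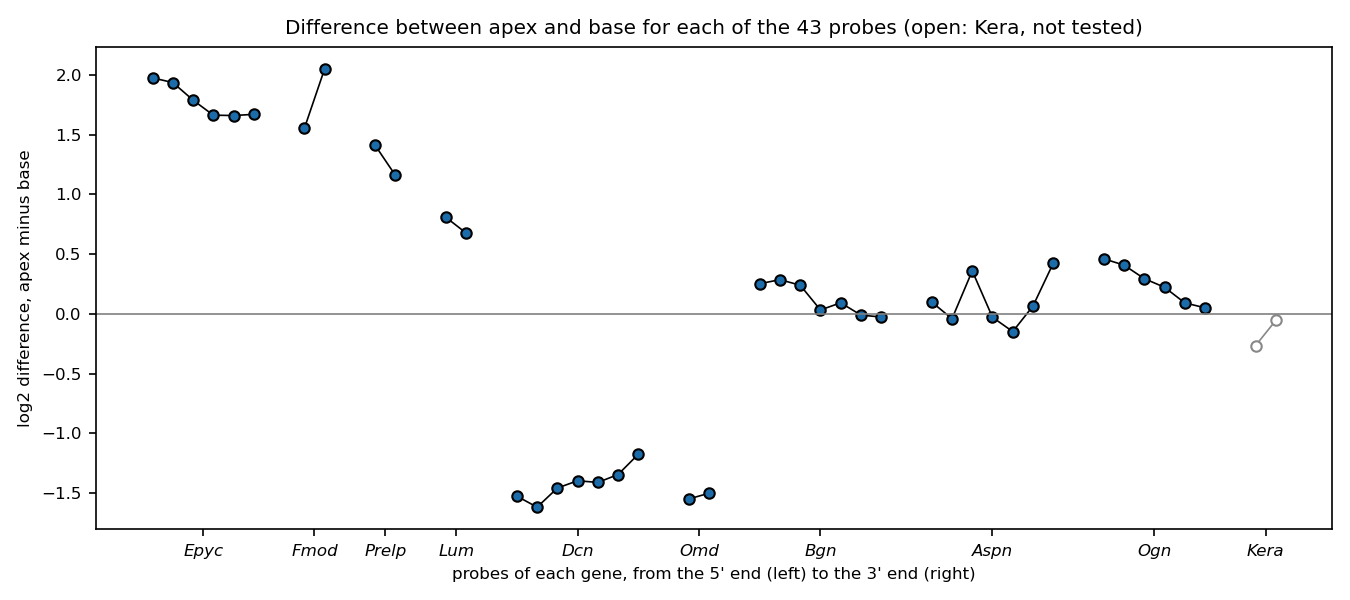
Log2 difference between apex and base (vertical axis) for each of the 43 probes, ordered within a gene from the 5′ end on the left to the 3′ end on the right, with lines joining the probes of a gene. The 6 Ogn probes run from 0.46 down to 0.05, and every Dcn and Omd probe lies at -1.17 or below.

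Most of the family lies in gene clusters. Dcn, Lum, Kera and Epyc follow each other on chromosome 10, with 51.4 kb, 36.9 kb and 36.2 kb between the nearest probes of successive genes. Dcn rose toward the base, Lum and Epyc toward the apex, and Kera peaked in the middle. Aspn, Omd and Ogn lie on chromosome 13, 23.2 kb and 16.8 kb apart, and of these Omd alone passed a test between turns. Prelp and Fmod lie 126 kb apart on chromosome 1, both higher at the apex, and Bgn lies on the X chromosome.

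The ratio of neighbours on the same array is not changed by a factor common to the array. The log2 ratio of Dcn to Lum was 0.82 ± 0.17 at the apex, 2.12 ± 0.14 in the middle and 2.98 ± 0.13 at the base (SD, n = 4 each), a 4.464-fold change of the ratio between apex and base (exact permutation test, two-sided, p = 0.0286, adjusted over the 4 tested pairs 0.0381). The ratio of Omd to Ogn changed 3.431-fold and that of Aspn to Omd 3.091-fold, both with an exact permutation p of 0.0286 (adjusted 0.0381), which is the smallest that 4 against 4 arrays allow. For these 3 pairs the apical and basal arrays did not overlap. The ratio of Prelp to Fmod changed 1.432-fold with overlapping arrays (exact permutation p = 0.0571, adjusted 0.0571). Because genes were paired with their results known, these tests describe known changes on another scale.

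**Figure D4:**
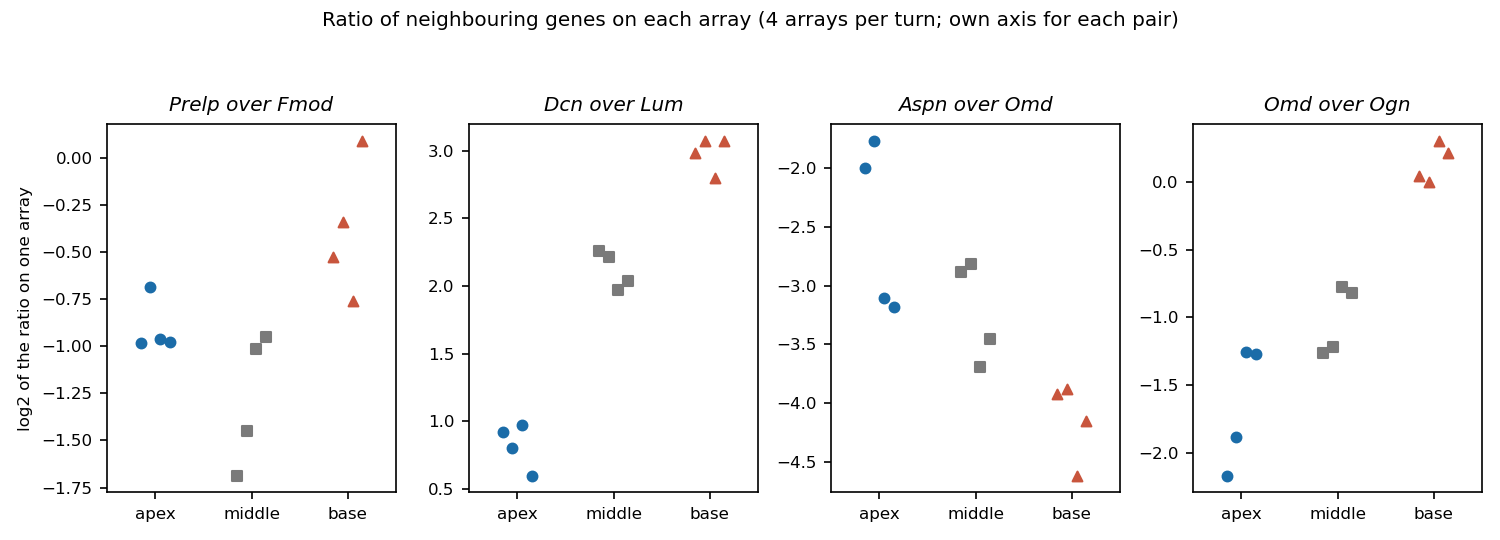
Log2 ratio of 2 neighbouring genes on each array (vertical axis, a scale of its own for each pair) for the 4 apical (circles), 4 middle (squares) and 4 basal (triangles) arrays. The ratio of Dcn to Lum lies between 0.60 and 0.97 at the apex and between 2.80 and 3.07 at the base.

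Over the 12 arrays, the genes whose log2 values followed a member most closely were ranked among 16503 genes by Pearson's r, as a description, since arrays of a turn share both turn and slide. For Epyc these were Sdpr (r = 0.996), Fst (0.989), which encodes the activin antagonist follistatin, and Gm12824 (0.988). For Dcn they were Prr15 (0.994), Deb1 (0.991) and Mboat1 (0.987), and for Fmod Cdh11 (0.986), a cadherin of mesenchymal cells, P4ha3 (0.981), a subunit of collagen prolyl hydroxylase, and Acbd7 (0.981). For Kera they were Gzmd (0.904), Kl (0.902), which encodes klotho, and Klri2 (0.896). Kl averaged 332.7, 510.6 and 337.2 at apex, middle and base, and Gzmd and Klri2 were dim, at 14.57 to 20.48. After the mean of each turn was taken out, r was 0.114 for Kera with Kl, 0.718 with Gzmd and 0.702 with Klri2. It was 0.937 for Dcn with Prr15, and the other genes named here lay between 0.528 (Epyc with Fst) and 0.887 (Fmod with P4ha3). Among the members, r was -0.951 between Epyc and Omd, -0.933 between Epyc and Dcn and 0.934 between Epyc and Prelp.

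Relatives outside the family list and the enzymes that build its sugar chains were counted in the same way. Of 8 other leucine-rich repeat proteoglycans or relatives measured, 2 were higher at the base, 1 at the apex and 5 did not pass, a share of passing genes near the 39.2% of all genes. Chad, which encodes chondroadherin, a collagen-binding cartilage protein, averaged 140.7, 232.1 and 569.3 and was 4.046-fold higher at the base (limma adjusted p = 4.4e-06). The other gene counted at the base, Nyx, was not well above background on all arrays of any turn, so no fold is given. Tsku, which encodes tsukushi, was 1.163-fold higher at the apex (adjusted p = 0.042).

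Of 21 genes for the linker and for chondroitin or dermatan sulfate chains, 5 were higher at the apex, 8 at the base and 8 did not pass, beside 17.6% of all genes higher at the apex and 21.6% at the base. Chst3, a chondroitin 6-sulfotransferase, was 3.004-fold higher at the base (limma adjusted p = 5.2e-06), Chst11, a chondroitin 4-sulfotransferase, was 1.974-fold higher there (adjusted p = 9.1e-05), and Chst15, which adds a further sulfate to chondroitin, was 1.897-fold higher at the apex (adjusted p = 0.0017). Of 7 genes for keratan sulfate chains, 2 were higher at the apex, 1 at the base and 4 did not pass, a share of passing genes near the 39.2% of all genes. Among these sulfotransferases, Chst2 was 2.411-fold higher (adjusted p = 0.00068) and Chst1 2.057-fold higher (adjusted p = 0.00012) at the apex, and Chst5 was 1.971-fold higher at the base (adjusted p = 5.8e-05).

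Of 16 genes for fibrillar and fibril-associated collagens, the partners of the family, 7 were higher at the base, 2 at the apex and 7 did not pass, beside 21.6% and 17.6% of all genes. Col11a1 (1.96-fold, limma adjusted p = 0.00023), Col2a1 (1.668-fold, adjusted p = 4e-05) and Col9a3 (1.64-fold, adjusted p = 1.2e-05), all genes of cartilage-type fibrils, were higher at the base. All 6 TGF-beta ligand and receptor genes passed, beside 39.2% of all genes, 3 in each direction. Tgfb1 (1.502-fold), Tgfbr2 (1.489-fold) and Tgfb2 (1.368-fold) were higher at the base, with limma adjusted p values of 0.001, 0.00076 and 2e-04.

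Cell type markers moved with the same turns, and their counts are to be read beside 17.6% of all genes higher at the apex and 21.6% at the base. All 6 spiral ligament fibrocyte markers were higher at the base, like Dcn and Omd, and their summed signal was 283700 to 308000 at the apex, 381500 to 432100 in the middle and 556100 to 619500 at the base. A sum follows its brightest genes, here Otos, at 151200 at the apex and 367100 at the base (2.427-fold). Tbx18 differed 1.183-fold, Pou3f4 1.269-fold, Car3 1.341-fold, Coch 1.482-fold and Slc4a11 1.897-fold. Between apex and middle, 3 of the 6 passed, all higher in the middle, beside 7.62% of all genes higher in the middle in that comparison. All 8 hair cell markers (summed 2295 to 2754, 1879 to 2055 and 599.5 to 1020) were higher at the apex, like Epyc, Fmod, Prelp and Lum. So were all 6 neuron markers (24290 to 30930, 21610 to 37380 and 5496 to 19700) and all 6 Schwann cell markers (13050 to 14710, 13930 to 16760 and 6489 to 12460). All hair cell markers but Myo7a are deafness genes that the study lists for being higher at the apex on these same arrays. The hair cell count was therefore largely fixed in advance and is no independent result. The neuron and Schwann cell sums, like Fmod, had overlapping apical and middle arrays. The same held for the sums of supporting cells, bone cells, cartilage cells, macrophages, endothelium and blood. As 20.8% of all genes did not overlap between apex and middle, overlap is the usual case and singles out no cell type.

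Among connective tissue markers, 1 of 7 for bone cells (Dmp1, 2.133-fold) was higher at the base, and the bone sums were 1329 to 4874, 1595 to 1837 and 2400 to 2990. For cartilage cells, 2 of 7 were higher at the base (Acan 6.269-fold, Sox9 1.335-fold) and 1 at the apex (Matn1, 2.027-fold), with sums of 1436 to 1500, 1351 to 1602 and 2364 to 2592. For fibroblasts, 1 of 6 was higher at the apex (Pdgfra, 2.156-fold) and 1 at the base (Pdgfrb, 1.175-fold), with sums of 1090 to 1160, 914.3 to 979.2 and 862.6 to 923.7. Of the other lists, 4 of 6 supporting cell markers were higher at the apex. Higher at the base were 2 of 5 marginal cell, 5 of 6 intermediate cell and 5 of 5 macrophage markers. For endothelium 3 of 5 were higher at the base and 1 at the apex, and the 4 blood markers did not pass (limma adjusted p from 0.35 to 0.77). The part of these cell types in the members' differences was not tested.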

How the data were processed

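RNA of 12 samples, 4 for each cochlear turn, was labelled with cyanine 3 and hybridised to exon arrays. The authors deposited a fluorescence intensity per spot, read from the scans by Agilent Feature Extraction 10.7.3.1. Background had been subtracted from the processed intensity, and arrays had not been scaled to each other. The mean and local background intensities and the spot flags were used as deposited by the authors. Probe positions are those of mm9.

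An array held 180880 spots, 7914 of them controls, which were not used. Flagged spots were dropped, and 119 probes with no unflagged spot on some array were left out, which left 165865 probes. Each array was scaled so that its 75th percentile equalled the median over arrays, 640.8. Spots of a probe and then log2 values of the probes of a gene name were averaged, giving 19505 genes. Depth here is brightness, and 4 arrays per turn limit the precision. Turns were compared with limma 3.58.1 in R 4.3.3 (moderated contrasts over 12 arrays, Benjamini-Hochberg adjustment over all genes, threshold 0.05), as were single probes. Files were read with the data.table package (version 1.17.8), and figures were drawn with matplotlib 3.10.9. The methods name 4 mice, and no label ties an array to an animal, so that animals could not be used as a block.

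The members and the other gene lists were chosen with earlier results of these data known. All members are named. For Kera, Epyc, Dcn and Fmod, the 3 genes with the highest r are named, and of the other lists up to 3 genes each that passed with the largest difference between apex and base, for marker lists those of connective tissue alone. The bend at the middle turn, the search for repeat cores and the setting without 1 asporin probe were chosen after the data had been seen. The gene and probe tests were tested on simulated data before use. Alternatives comprised other scalings, background corrections, probe filters, summaries and fits, and each array left out in turn.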

Additional observations from a re-analysis of the deposited data

Results flagged for a closer look

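In 30 groups of 4 arrays (10 genes in 3 turns), 2 held an array that lay far from the other 3, and chance alone gives about 1 such group in 20. Both concern Lum. Middle replicate 1 was lowest, with a gap to its nearest neighbour of 0.83 of the group's range, and basal replicate 3 was lowest, with a gap of 0.874. Without basal replicate 3, Lum was 1.576-fold higher at the apex than at the base (limma adjusted p = 0.00056).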

How the results depend on the processing

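The 27 comparisons of the 9 tested members were recomputed under 28 alternatives, which gave 756 values. Of these, 714 kept their side of the threshold and, where called, their direction, 29 lost the call, 10 gained one and 3 reversed. The 3 reversals came with scaling to the spike-in probes, where the log2 difference between apex and base was -0.46 for Bgn (limma adjusted p = 0.0075), -0.48 for Aspn (0.028) and -0.33 for Ogn (0.018). Apart from that scaling, the 2-fold rule and single arrays left out, 14 settings gave 378 values, of which 368 kept their call, 5 lost it and 5 gained one. Of these settings, the series matrix values are identical to those of the main analysis, and leaving out 1 asporin probe changes the values of Aspn alone. Their rows could hardly change a call, so they raise the counts of kept calls in both totals. For all genes, the counts called were 7645, 2348 and 4067 between apex and base, apex and middle, and middle and base. Spike-in scaling called 16138, 11176 and 6752, with medians of all genes at -0.62, -0.37 and -0.24. Scaling to the median called 3543 between apex and middle, and put the median of all genes between apex and base at -0.15 in place of -0.04. The F test with a 2-fold difference called 856, 85 and 519 genes, with 0 members in the second comparison and 1 in the third. With only the 2 turns compared in the fit, 3 members passed between apex and middle. Of all genes called between apex and base, 44.9% were higher at the apex, against 26.5% with median, 36.9% with quantile and 3.96% with spike-in scaling, and 36.2% with linear averaging of probes. The share higher in the first turn named was 36.7% between apex and middle, against 18.7% with median and 1.38% with spike-in scaling, and 55.8% between middle and base, against 44.9% with quantile, 38.2% with median and 10.6% with spike-in scaling.

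With 1 array left out, the genes called between apex and middle ranged from 965 (without apical replicate 2) to 3532 (without middle replicate 3), and the members from 3 to 5. They also fell by more than 1.5 times without apical replicate 1 or 3 or middle replicate 2 or 4. Between middle and base the genes ranged from 2656 (without basal replicate 2) to 4758 (without middle replicate 3), and were 2707 without middle replicate 1. Ogn passed between apex and base without apical replicate 3 (adjusted p = 0.0062), and between middle and base without apical replicate 3 (0.019) or middle replicate 3 (0.043). In this last comparison it also passed with linear averaging of probes (0.045) and with only the 2 turns in the fit (0.043).

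Sample numbers recur in the turns. Deviations of same-numbered arrays correlated at -0.0368 to 0.227 (median 0.102), over 0.1 in 6 of 12 pairs, and those of other arrays had a median of -0.018, over 0.1 in 2 of 36 pairs. An array correlated best with its own number in 15 of 24 cases. These values hint at a link between same-numbered arrays, which no label states, and the numbers were not used as pairs in the tests above. Those tests, the permutation tests among them, thus ignore any pairing by animal. With the number as a replicate block, 8168, 3323 and 5063 genes and 6, 5 and 6 members passed, the added member being Ogn between middle and base (0.31, limma adjusted p = 0.048).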
